A study of Mus musculus with 12 samples.

Results

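The 10 genes described here encode the Smad signalling chain of TGF-β and the proteins that restrain it in mouse T cells. They were chosen by name: Smad2, Smad3 and Smad4 as signal transducers, Smad7, Smurf2, Ldlrad4 and Pmepa1 as inhibitors that act on the receptor or on Smads, and Ski, Skil and Tgif1 as nuclear corepressors. A gene was read from the array clusters whose platform annotation gave its symbol alone, and each of the 10 had exactly 1 such cluster, out of 22180 genes measured in all. Total RNA of sorted T cells was read on 12 arrays, 3 for each of 4 groups. T cells of C57BL6-Foxp3-GFP mice, in which GFP reports Foxp3, were cultured at 200000 per well with 20000 CD11c+ dendritic cells of BALB/c mice, an allogeneic stimulus. CD8 Foxp3-positive cells were sorted as GFP+ after 4 days with IL-2 (5 ng/mL), TGF-β (5 ng/mL) and retinoic acid (40 nM), and CD8 control cells as GFP- after 4 days with IL-2 (5 ng/mL) alone. CD4 Foxp3-positive and CD4 control cells were made in the same 2 ways over 5 days. Within a lineage the added TGF-β, the added retinoic acid and the sort on GFP changed together and cannot be told apart, and between lineages the days in culture differed too. Cultures were pooled before sorting. Whether the 3 arrays of a group stand for separate cultures or animals is not labelled, so the p-values cover array-to-array spread that can be technical.

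TGF-β binds a receptor complex whose kinase phosphorylates Smad2 and Smad3, which join Smad4, enter the nucleus and switch target genes on or off together with other factors. The same signal induces its own brakes. Smad7 occupies the receptor and brings in ubiquitin ligases such as Smurf2, Ldlrad4 and Pmepa1 (also called TMEPAI) keep Smad2 and Smad3 from the receptor, and Ski, Skil (SnoN) and Tgif1 recruit histone deacetylases to Smad complexes. In T cells TGF-β together with IL-2 induces Foxp3, the lineage factor of regulatory T cells, and Smad3 binds an enhancer of the Foxp3 gene.

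Promoter windows show where Smad motifs lie upstream of some of these genes. RefSeq windows of GRCm38.p6 were matched by gene ID for 4 of the 10 genes, 8 windows in all. Those of Ski and Smurf2 (both higher in Foxp3-positive cells of either lineage) and of Smad3 (called higher in CD4 cells and not called in CD8 cells) are printed. Each holds the 250 bases before the annotated start, 5′ to 3′ on the gene's strand, at chr4:155222536-155222785 (minus strand) for Ski, chr11:106920716-106920965 (minus strand) for Smurf2 and chr9:63757995-63758244 (minus strand) for Smad3. Capitals mark matches to CAGAC, which reads GTCTG on the opposite strand, or to GGCGC, which reads GCGCC on the opposite strand. The palindrome GTCTAGAC was searched too.
Ski: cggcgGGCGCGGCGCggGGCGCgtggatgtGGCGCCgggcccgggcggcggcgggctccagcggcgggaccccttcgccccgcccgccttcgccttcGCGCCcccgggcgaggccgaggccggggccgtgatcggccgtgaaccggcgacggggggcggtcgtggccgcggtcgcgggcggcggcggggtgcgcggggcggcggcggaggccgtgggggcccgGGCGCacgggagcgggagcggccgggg
Smurf2: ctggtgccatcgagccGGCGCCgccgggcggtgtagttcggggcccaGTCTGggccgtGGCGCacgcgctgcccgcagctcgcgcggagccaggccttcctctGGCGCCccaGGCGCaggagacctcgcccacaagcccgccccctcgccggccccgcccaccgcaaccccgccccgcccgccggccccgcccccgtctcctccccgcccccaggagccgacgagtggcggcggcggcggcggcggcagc
Smad3: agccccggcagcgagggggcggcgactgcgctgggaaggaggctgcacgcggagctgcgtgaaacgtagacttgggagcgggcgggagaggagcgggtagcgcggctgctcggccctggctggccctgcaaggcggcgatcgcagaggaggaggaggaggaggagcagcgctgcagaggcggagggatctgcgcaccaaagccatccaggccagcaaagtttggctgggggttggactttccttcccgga
The Ski window held 0 CAGAC and 7 GGCGC matches at a GC content of 87.6%, and the Smurf2 window held 1 CAGAC and 6 GGCGC matches at 82% GC. The Smad3 window, at 69.2% GC, held 0 matches of either motif, and the palindrome had 0 matches in all 3 windows. Tgif1, which rose in CD4 cells, has 5 windows in the table that are not printed, of which 3 held CAGAC and 1 held GGCGC as well. A GGCGCC is counted once on each strand, and no base belonged to both motifs. Of all 32851 windows of this length in the table, 42.2% held CAGAC, 32.0% held GGCGC and 0.167% held the palindrome, so the presence of either short motif is common. A match is a description of letters and not a binding site.

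Values are log2 expression of a gene's cluster, compared between groups and never between genes, since probes differ in brightness. A difference was called where limma's moderated test, fitted on all 12 arrays, gave a Benjamini-Hochberg adjusted p under 0.05 over all 22180 genes. Foxp3 checked the labels, at 12.45 to 12.53 in CD8 Foxp3-positive cells against 5.23 to 6.33 in CD8 control cells, and at 12.39 to 12.49 in CD4 Foxp3-positive cells against 5.52 to 6.07 in CD4 control cells. Cd8b1, a chain of the CD8 receptor, lay at 11.84 to 12.01 on the CD8 arrays and at 6.02 to 8.02 on the CD4 arrays, while Cd4 lay at 4.90 to 6.0 and 11.84 to 12.45 on the same sets of arrays. Within CD4 cells Cd8b1 was at 6.02 to 6.45 on the Foxp3-positive arrays and at 7.53 to 8.02 on the control arrays, whereas the other chain, Cd8a, read 7.34, 7.11 and 8.16 on the CD4 Foxp3-positive arrays and 6.68, 7.12 and 5.72 on the CD4 control arrays. Array medians lay between 5.23 and 5.33, and arrays of 1 group correlated at 0.992 to 0.994. CD4 Foxp3-positive array C lay above arrays A and B of its group in several genes, with Gzmb at 9.99 against 8.40 and 7.74, H2-Ab1 at 9.85 against 8.73 and 8.28, and Runx3 at 9.60 against 8.96 and 8.72. Without it 7 of the 10 genes were called between CD4 Foxp3-positive and CD4 control cells in place of 8, and 5 in place of 7 for the difference of effects between lineages. These drops were not particular to array C. The CD4 call of Smad3 was lost without any 1 of the 6 compared arrays, and the count for the difference of effects was 4 to 6 over all 12 fits without 1 array.

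Among marker genes of other cell types, the dendritic cell and B cell list means differed between Foxp3-positive and control arrays, carried by few genes. The macrophage and monocyte means and the NK cell means overlapped. The mean of 10 measured dendritic cell markers, of 12 listed, was 6.12 to 6.25 in CD8 Foxp3-positive cells against 6.29 to 6.40 in CD8 control cells, and 6.04 to 6.29 in CD4 Foxp3-positive cells against 6.45 to 6.46 in CD4 control cells. In CD8 cells 1 of these 10 was called higher (Cd86) and 2 lower (Itgax and Batf3), and in CD4 cells 2 were called lower (Batf3 and H2-Ab1). Flt3, Zbtb46, Xcr1, Cd209a, Siglech and Ccl22 were called in neither. The calls were 30% of the list beside 20% of all genes in CD8 cells and 20% beside 22.5% in CD4 cells. The mean of 4 B cell markers, of 5 listed, was 5.59 to 5.73 in CD8 Foxp3-positive cells against 5.26 to 5.34 in CD8 control cells, and 5.21 to 5.42 in CD4 Foxp3-positive cells against 4.99 to 5.19 in CD4 control cells. Cd79b was called higher in both lineages and Cd79a in CD8 cells, while Ms4a1 and Pax5 were called in neither. The calls were 50% of this list in CD8 and 25% in CD4 cells, beside 20% and 22.5% of all genes. For 6 macrophage and monocyte markers the ranges were 5.38 to 5.93 in CD8 Foxp3-positive and 5.28 to 5.43 in CD8 control cells, and 5.29 to 5.56 in CD4 Foxp3-positive and 5.27 to 5.57 in CD4 control cells. Of these 6, 2 were called higher and 1 lower in CD8 cells (50%), and 1 higher and 1 lower in CD4 cells (33.3%). Single genes moved in opposite directions. Lyz2 averaged 6.37 in CD8 Foxp3-positive against 4.55 in CD8 control cells, and 5.51 against 4.45 in CD4 cells. Cd68 averaged 7.92 against 8.56 in CD8 cells and 7.38 against 8.57 in CD4 cells. The 2 measured NK cell markers, of 3 listed, lay between 4.13 and 4.72 on every array. The median of all genes was 5.60, and most of these means sat near it, but a list mean can hide bright markers. Above that median were 4 to 6 of the 10 dendritic cell markers per group, 1 of the 4 B cell markers, 1 or 3 of the 6 macrophage and monocyte markers and 0 of the NK cell markers. Cd209a had group means of 9.23 to 9.47 and H2-Ab1 of 8.95 to 10.0. Array values have no true zero. The part of these markers in the results below was not tested. In sorted bulk RNA, fewer cells of a type and less RNA per cell cannot be told apart.

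Within the 10 genes the inhibitors and corepressors carried the change, while the transducers moved little. In CD8 cells 7 of the 10 genes were called between Foxp3-positive and control cells, 6 higher and 1 lower, against 20% of all genes called, 9.39% higher and 10.6% lower. In CD4 cells 8 of the 10 were called, all higher, against 22.5% of all genes called, 12.1% higher and 10.4% lower. All 4 inhibitors acting on the receptor or on Smads rose in both lineages, with a median log2 difference of 2.10 in CD8 and 1.26 in CD4 cells. Smad6, an inhibitory Smad outside the 10 genes, was called in neither lineage. It differed by -0.21 in CD8 cells (limma adjusted p = 0.401) and by 0.20 in CD4 cells (limma adjusted p = 0.402), at group means of 4.04 to 4.49. Of the 3 corepressors, 2 rose in CD8 cells and 3 in CD4 cells, with medians of 2.04 and 1.56. Of the 3 transducers, 1 was lower in CD8 cells (Smad2) and 1 was higher in CD4 cells (Smad3). The median over the 10 genes was 1.23 in CD8 and 1.06 in CD4 cells, beside -0.02 and 0.003 over all genes. Since the lists were named with earlier results of these data known, these counts describe the genes and support no wider statement.

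**Figure D1:**
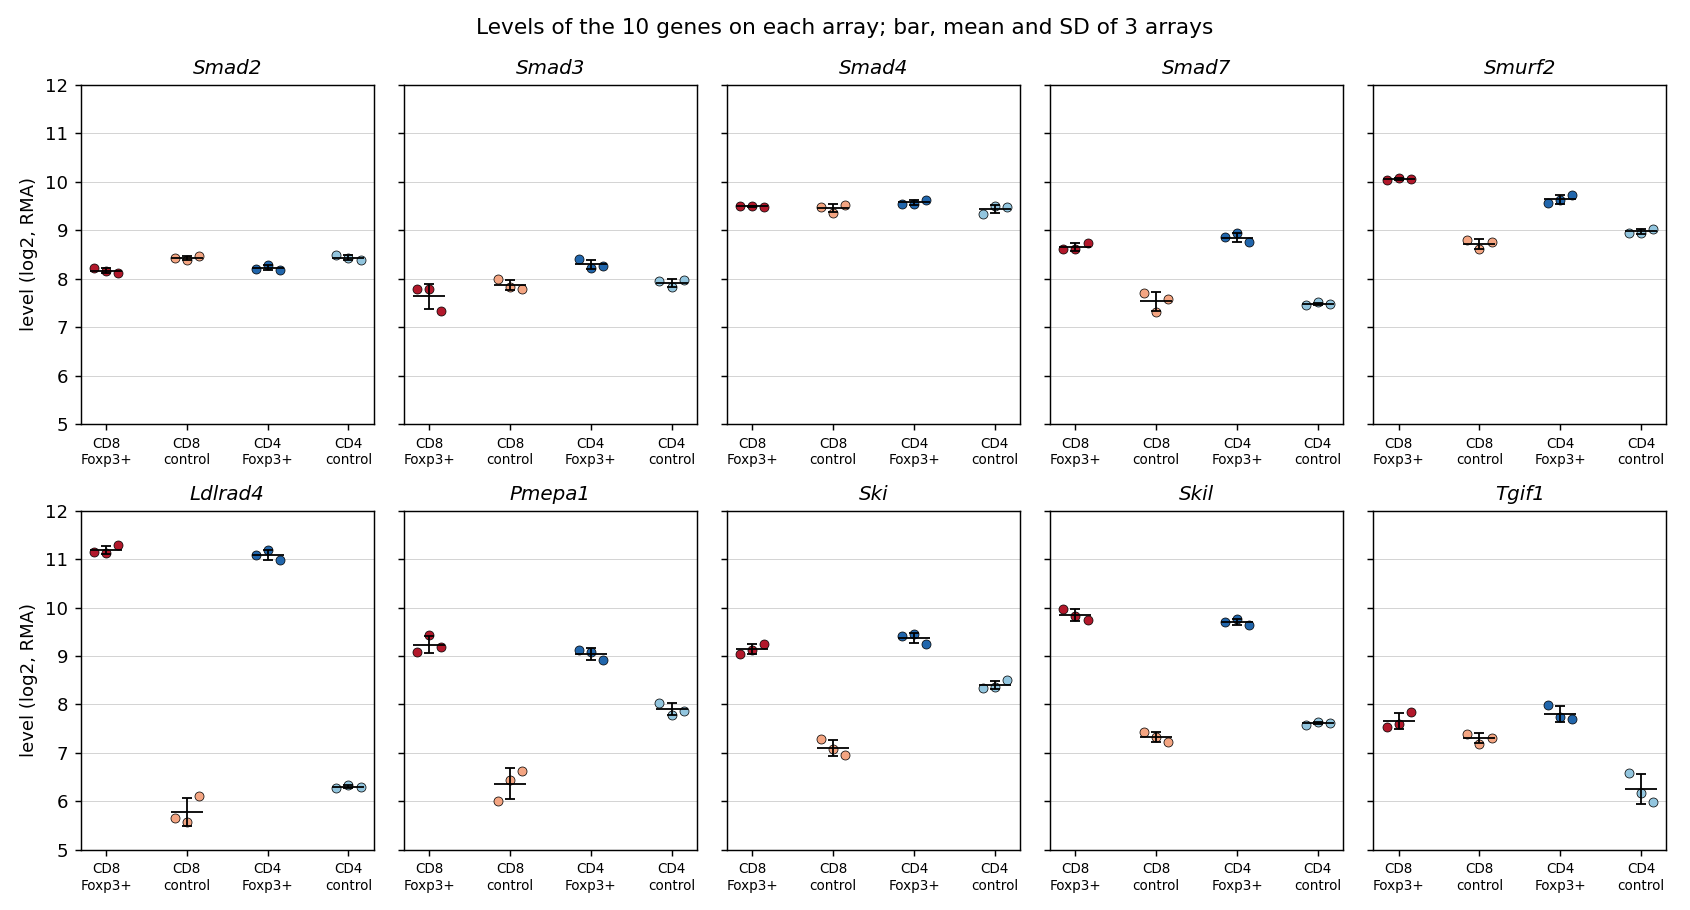
Log2 expression of each of the 10 genes (vertical axis) on each array, 1 point per array, in CD8 Foxp3-positive, CD8 control, CD4 Foxp3-positive and CD4 control cells, with a long bar at the group mean and whiskers for the SD of 3 arrays. Ldlrad4 sits between 10.98 and 11.29 on all 6 Foxp3-positive arrays and between 5.57 and 6.33 on all 6 control arrays, while Smad4 stays between 9.34 and 9.63 on all 12.

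Smad2, the receptor-activated Smad phosphorylated directly by the TGF-β receptor kinase, read 8.23, 8.16 and 8.11 in CD8 Foxp3-positive cells against 8.43, 8.38 and 8.47 in CD8 control cells. In CD4 cells it read 8.20, 8.28 and 8.19 in Foxp3-positive cells against 8.49, 8.43 and 8.38 in control cells. Every Foxp3-positive array was below every control array of its lineage, but by a small margin. The log2 difference was -0.26 ± 0.08 (SE) in CD8 cells (limma adjusted p = 0.0322, 95% interval -0.43 to -0.09) and -0.21 ± 0.08 in CD4 cells (limma adjusted p = 0.0762, interval -0.37 to -0.04), which was not called. The CD8 call was lost in 5 of 6 fits that each left out 1 compared array (adjusted p 0.0533 to 0.108), and held only without CD8 Foxp3-positive array A. The CD8 effect minus the CD4 effect was -0.05 (limma adjusted p = 0.833).

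Smad3, the receptor-activated Smad that binds DNA itself, read 7.78, 7.78 and 7.34 in CD8 Foxp3-positive cells against 7.99, 7.83 and 7.79 in CD8 control cells, with array C of the Foxp3-positive group the lowest. The CD4 arrays read 8.40, 8.22 and 8.27 in Foxp3-positive cells against 7.95, 7.82 and 7.97 in control cells. The groups did not overlap in either lineage. Smad3 was higher by 0.38 ± 0.12 in CD4 Foxp3-positive cells (1.30-fold, limma adjusted p = 0.037), and the CD8 difference of -0.23 ± 0.12 was not called (limma adjusted p = 0.226, interval -0.50 to 0.03). The CD4 call was lost when any 1 of the 6 compared arrays was left out (adjusted p 0.0584 to 0.125). The test of the difference between the lineages gave -0.62 ± 0.17 (limma adjusted p = 0.0313), and this call was lost without CD8 control array A, CD4 control array B or CD4 Foxp3-positive array A (adjusted p 0.0759 to 0.0787).

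Smad4, the common partner that joins receptor-activated Smads, read 9.50, 9.51 and 9.48 in CD8 Foxp3-positive cells against 9.48, 9.36 and 9.51 in CD8 control cells, and 9.55, 9.55 and 9.63 in CD4 Foxp3-positive cells compared with 9.34, 9.51 and 9.47 in CD4 control cells. The CD8 groups overlapped and the CD4 groups did not. The log2 differences were 0.04 ± 0.08 in CD8 cells (limma adjusted p = 0.79, interval -0.13 to 0.22) and 0.13 ± 0.08 in CD4 cells (limma adjusted p = 0.29, interval -0.04 to 0.31), so a change above 0.31 in either lineage lies outside these intervals.

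Smad7, the inhibitory Smad that blocks the receptor, read 8.61, 8.62 and 8.74 in CD8 Foxp3-positive cells against 7.70, 7.31 and 7.59 in CD8 control cells. On the CD4 side the values were 8.85, 8.94 and 8.75 in Foxp3-positive cells against 7.45, 7.51 and 7.48 in control cells. The Foxp3-positive arrays of both lineages stood above all control arrays. The rise was 2.18-fold in CD8 cells (log2 1.12 ± 0.10, limma adjusted p = 6.05e-06) and 2.58-fold in CD4 cells (log2 1.37 ± 0.10, limma adjusted p = 7.15e-07). The difference between the 2 rises, -0.25 ± 0.15, was not called (limma adjusted p = 0.327, interval -0.56 to 0.07).

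Smurf2, an E3 ubiquitin ligase that Smad7 brings to the receptor and that marks it for degradation, read 10.04, 10.08 and 10.06 in CD8 Foxp3-positive cells against 8.79, 8.61 and 8.76 in CD8 control cells. In CD4 cells it read 9.56, 9.62 and 9.73 in Foxp3-positive cells against 8.95, 8.94 and 9.03 in control cells. No array of any group overlapped with another group, and CD8 Foxp3-positive cells were the highest. The rise was 2.53-fold in CD8 cells (log2 1.34 ± 0.08, limma adjusted p = 1.74e-07) and 1.58-fold in CD4 cells (log2 0.66 ± 0.08, limma adjusted p = 6.68e-05). The CD8 rise was the larger, by 0.67 ± 0.12 (limma adjusted p = 0.00235).

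Ldlrad4, a membrane protein that holds Smad2 and Smad3 away from the receptor's anchor protein, had the widest range of the 10 genes. It read 11.15, 11.12 and 11.29 in CD8 Foxp3-positive cells against 5.66, 5.57 and 6.11 in CD8 control cells. The CD4 arrays read 11.08, 11.19 and 10.98 in Foxp3-positive cells against 6.28, 6.33 and 6.30 in control cells. The control arrays lay close to the median of all genes, 5.60, and the Foxp3-positive arrays far above it. The rise was 42.3-fold in CD8 cells (log2 5.40 ± 0.13, interval 5.13 to 5.68, limma adjusted p = 4.03e-11), rank 4 among the rises of 22180 genes. In CD4 cells it was 27.5-fold (log2 4.78 ± 0.13, interval 4.51 to 5.06, limma adjusted p = 6.96e-11), rank 8. The CD8 rise exceeded the CD4 rise by 0.62 ± 0.18 (limma adjusted p = 0.0364), a call lost in 10 of 12 fits that each left out 1 array (adjusted p 0.0532 to 0.089) and held without CD8 control array C or CD4 Foxp3-positive array B. With every array centred on its median it was lost too (adjusted p 0.0523). Signals near the background of an array are compressed, so a fold change against them can be understated.

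Pmepa1, a membrane protein that binds Smad2 and Smad3 and sends the receptor to the lysosome, read 9.09, 9.43 and 9.18 in CD8 Foxp3-positive cells against 6.01, 6.45 and 6.64 in CD8 control cells. On the CD4 side the values were 9.13, 9.09 and 8.91 in Foxp3-positive cells against 8.03, 7.79 and 7.87 in control cells. The 2 Foxp3-positive groups overlapped, and the CD4 controls lay between them and the CD8 controls. The rise was 7.29-fold in CD8 cells (log2 2.86 ± 0.15, limma adjusted p = 3.7e-08) and 2.21-fold in CD4 cells (log2 1.14 ± 0.15, limma adjusted p = 8.2e-05). The CD8 rise was larger by 1.72 ± 0.21 on the log2 scale (3.30-fold, limma adjusted p = 0.000176), the largest difference between lineages among the 10 genes.

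Ski, the founding corepressor of its family, which displaces coactivators from Smad complexes, read 9.05, 9.13 and 9.25 in CD8 Foxp3-positive cells against 7.28, 7.08 and 6.97 in CD8 control cells. In CD4 cells it read 9.41, 9.46 and 9.26 in Foxp3-positive cells against 8.33, 8.37 and 8.50 in control cells. The 4 groups did not overlap, and CD8 controls were the lowest. The rise was 4.10-fold in CD8 cells (log2 2.04 ± 0.10, limma adjusted p = 3.4e-08) and 1.97-fold in CD4 cells (log2 0.97 ± 0.10, limma adjusted p = 1.49e-05). The 2 rises differed by 1.06 ± 0.15 (limma adjusted p = 0.000462).

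Skil, the SnoN corepressor, is degraded upon TGF-β signalling as a protein and then transcribed anew by Smads. It read 9.98, 9.83 and 9.74 in CD8 Foxp3-positive cells against 7.44, 7.32 and 7.22 in CD8 control cells. The CD4 arrays read 9.70, 9.77 and 9.64 in Foxp3-positive cells against 7.58, 7.63 and 7.63 in control cells. The gap between Foxp3-positive and control cells was wide in both lineages, and the 2 Foxp3-positive groups overlapped. The rise was 5.74-fold in CD8 cells (log2 2.52 ± 0.09, limma adjusted p = 2.09e-09) and 4.25-fold in CD4 cells (log2 2.09 ± 0.09, limma adjusted p = 5.24e-09). The difference between the rises, 0.43 ± 0.13, was called (limma adjusted p = 0.0424), but the call was lost in 10 of 12 fits without 1 array (adjusted p 0.0536 to 0.104) and held without CD8 control array A or CD8 Foxp3-positive array C. Centring every array on its median ended it as well (adjusted p 0.0859).

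Tgif1, a homeodomain corepressor that binds Smad2 and also retinoid receptor sites, read 7.54, 7.60 and 7.84 in CD8 Foxp3-positive cells against 7.39, 7.19 and 7.31 in CD8 control cells. On the CD4 side the values were 7.99, 7.73 and 7.70 in Foxp3-positive cells against 6.59, 6.17 and 5.99 in control cells. It was the single inhibitor or corepressor with a wider gap in CD4 than in CD8 cells that passed the test of the difference, -1.20 ± 0.21 (limma adjusted p = 0.00218). The rise in CD4 cells was 2.94-fold (log2 1.56 ± 0.15, limma adjusted p = 5.01e-06). In CD8 cells the difference was 0.36 ± 0.15 and was not called (limma adjusted p = 0.115, interval 0.04 to 0.68), although the arrays of the 2 groups did not overlap.

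Over the 10 genes the arrays of Foxp3-positive and control cells did not overlap for 9 genes in CD8 cells, where 33.5% of all genes showed the same, and for 10 in CD4 cells, where 37.8% did. The effects of CD8 and CD4 cells differed for 7 of the 10 genes, against 13.5% of all genes (5 more positive in CD8 cells, beside 6.01%, and 2 in CD4 cells, beside 7.48%). Smurf2, Ldlrad4, Pmepa1, Ski and Skil had the more positive difference in CD8 cells, and Smad3 and Tgif1 in CD4 cells. The calls of Smurf2, Pmepa1, Ski and Tgif1 held with any 1 array left out.

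**Figure D2:**
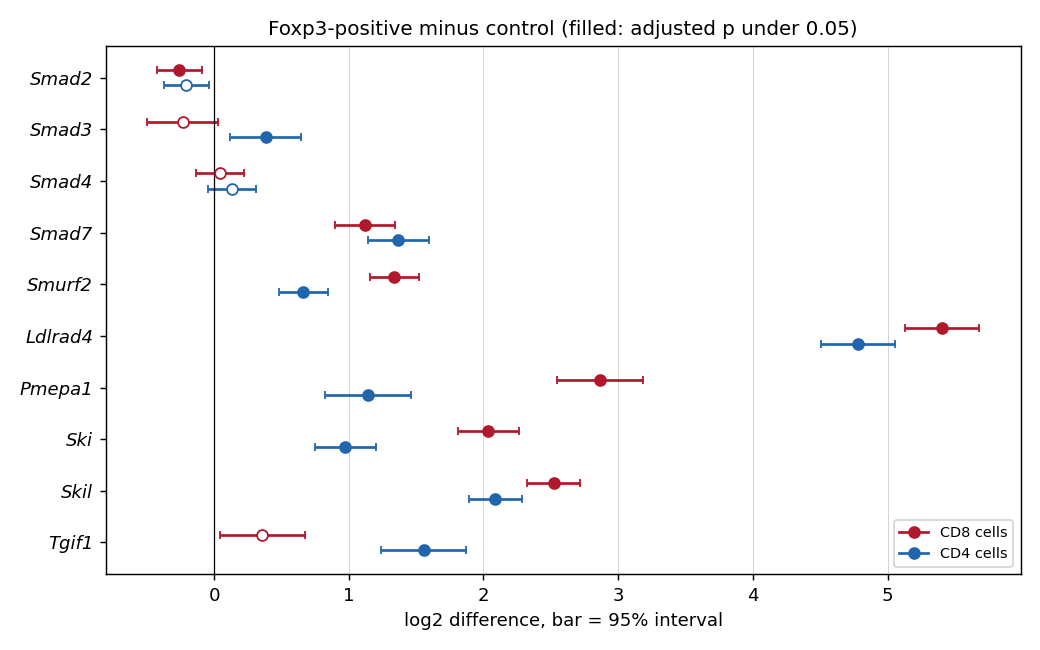
Log2 difference, Foxp3-positive minus control (horizontal axis), of each gene in CD8 cells and in CD4 cells, with bars for the 95% interval of the limma fit. Filled points have an adjusted p under 0.05; Ldlrad4 lies farthest right at 5.40 and 4.78, and the 3 transducers lie within 0.38 of 0.

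The same arrays also set CD8 against CD4 cells directly. Among Foxp3-positive cells 2 of the 10 genes were called, 1 higher and 1 lower in CD8 cells, beside 4.71% of all genes, 2.41% higher and 2.3% lower. Smurf2 was 1.34-fold higher in CD8 than in CD4 Foxp3-positive cells (log2 0.42 ± 0.08, limma adjusted p = 0.0105), and was not called without CD4 Foxp3-positive array A (adjusted p 0.0543). Smad3 was 1.58-fold lower in CD8 than in CD4 Foxp3-positive cells (log2 -0.66 ± 0.12, limma adjusted p = 0.00624). For the other 8 genes no difference was called. The intervals were -0.18 to 0.37 for Ldlrad4, -0.13 to 0.51 for Pmepa1, -0.46 to -0.01 for Ski, -0.05 to 0.34 for Skil and -0.46 to 0.17 for Tgif1. For Smad2 the interval was -0.22 to 0.11, for Smad4 -0.25 to 0.10 and for Smad7 -0.42 to 0.03. Intervals are per gene and not adjusted, so that of Ski was wholly negative at a limma adjusted p of 0.283. The arrays of the 2 Foxp3-positive groups did not overlap for 5 of the 10 genes, against 22.7% of all genes.

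Among control cells 6 of the 10 genes were called between the lineages, 1 higher and 5 lower in CD8 cells, beside 20.9% of all genes, 12.1% higher and 8.76% lower. The arrays of the 2 control groups did not overlap for 6 of the 10 genes, against 33.7% of all genes. Pmepa1 was 2.89-fold lower in CD8 than in CD4 controls (log2 -1.53 ± 0.15, limma adjusted p = 1.16e-05) and Ski 2.45-fold lower (log2 -1.29 ± 0.10, limma adjusted p = 2.31e-06). Ldlrad4 was 1.44-fold lower (log2 -0.52 ± 0.13, limma adjusted p = 0.00948), and Tgif1 was 2.07-fold higher in CD8 controls (log2 1.05 ± 0.15, limma adjusted p = 0.000219). The larger effect of Pmepa1 and Ski in CD8 cells thus went with a lower control level, and the larger effect of Tgif1 in CD4 cells with a lower CD4 control level. These comparisons share arrays, so the statement is arithmetic and adds no separate evidence. Skil (log2 -0.29 ± 0.09, limma adjusted p = 0.0396) and Smurf2 (log2 -0.25 ± 0.08, limma adjusted p = 0.0489) were also lower in CD8 controls. The Smurf2 call was lost without any 1 of the 6 control arrays (adjusted p 0.0573 to 0.177), and the Skil call without any of them but CD8 control array A (adjusted p 0.0702 to 0.118), and both were lost with arrays centred on their median (0.127 for Smurf2 and 0.0996 for Skil). Smad2, Smad3, Smad4 and Smad7 had control differences between -0.04 and 0.05 and were not called (limma adjusted p 0.807 to 0.98).

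**Figure D3:**
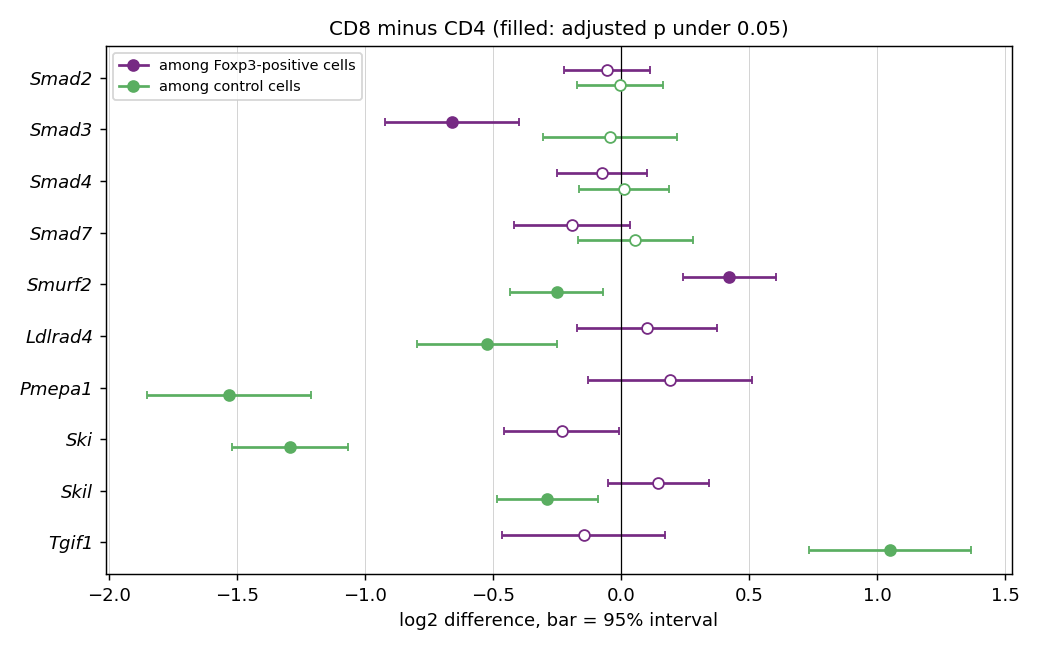
Log2 difference, CD8 minus CD4 (horizontal axis), of each gene among Foxp3-positive cells and among control cells, with bars for the 95% interval of the limma fit and filled points for an adjusted p under 0.05. Pmepa1 and Ski lie at -1.53 and -1.29 among control cells and at 0.19 and -0.23 among Foxp3-positive cells.

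The order of the 4 group means differed between genes. Ldlrad4, Pmepa1 and Skil were highest in CD8 Foxp3-positive cells and lowest in CD8 control cells, with the 2 Foxp3-positive groups overlapping. Smurf2 had the same order with no overlap between neighbours. Smad7 was highest in CD4 Foxp3-positive cells, and its 2 control groups overlapped. Ski was highest in CD4 Foxp3-positive and lowest in CD8 control cells with no overlap between neighbours, and Tgif1 was highest in CD4 Foxp3-positive and lowest in CD4 control cells.

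The genes with the most similar profile over the 4 group means, each profile centred on its own mean, were found for the 7 members whose means spanned more than 1 on the log2 scale. The likeness is the root mean square difference over 4 groups, a description of 12 arrays. Pmepa1 was nearest to Ikzf4, which encodes the regulatory T cell factor Eos, at 0.081, then to Nucb2 (0.098) and Gda (0.179). Skil was nearest to Lztfl1 (0.046), Jun (0.053), an AP-1 subunit, and Galm (0.063). Smad7 was nearest to Lamc1 (0.046), Nxpe4 (0.055) and Sh2b3 (0.062), and Smurf2 to Tcn2 (0.046), N4bp2l1 (0.047) and Nlrc3 (0.051). Ski was nearest to Tmem176a (0.083), Tmem176b (0.121) and Muc1 (0.128), and Tgif1 to Mpp1 (0.049), Fgf13 (0.072) and Clec2i (0.083). Ldlrad4 was nearest to Tph1 (0.177), Hepacam2 (0.327) and Csn2 (0.392). The measure is not scaled to a gene's span, so it can be larger for genes with wide profiles.

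Further up the pathway, all 19 listed ligands, receptors and activators were measured, and in CD8 cells 8 were higher and 1 lower in Foxp3-positive than in control cells, while in CD4 cells 7 were higher and 6 lower. The shares of all genes called, for this and each list that follows, were 20% in CD8 cells (9.39% higher and 10.6% lower) and 22.5% in CD4 cells (12.1% higher and 10.4% lower), beside 47.4% and 68.4% of this list. The list medians were 0.07 in CD8 and -0.02 in CD4 cells. Tgfbr1, the type I receptor whose kinase phosphorylates Smad2 and Smad3, read 9.58, 9.46 and 9.39 in CD8 Foxp3-positive cells against 6.92, 6.97 and 6.73 in CD8 control cells, a rise of 2.60 ± 0.12 (limma adjusted p = 2.02e-08). In CD4 cells it rose by 1.90 ± 0.12 (limma adjusted p = 1.99e-07). Tgfbr2, the type II receptor that binds the ligand, differed by 0.12 in CD8 cells (limma adjusted p = 0.524) and by -0.12 in CD4 cells (limma adjusted p = 0.468). Acvr2a, an activin type II receptor, rose by 3.27 ± 0.12 in CD8 cells (limma adjusted p = 2.69e-09) and by 1.35 ± 0.12 in CD4 cells (limma adjusted p = 3.71e-06).

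Tgfb3, a TGF-β ligand, passed the test in opposite directions in the 2 lineages. It read 8.58, 8.98 and 8.66 in CD8 Foxp3-positive cells against 5.74, 5.32 and 6.35 in CD8 control cells, and 6.92, 6.97 and 7.49 in CD4 Foxp3-positive cells compared with 9.11, 9.60 and 9.66 in CD4 control cells. It was higher by 2.94 ± 0.24 in CD8 Foxp3-positive cells (limma adjusted p = 1.98e-06) and fell in CD4 Foxp3-positive cells by 2.33 ± 0.24 (limma adjusted p = 1.14e-05). The effects differed by 5.26 ± 0.34 (limma adjusted p = 1.27e-06).

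Of 11 other Smads and Smad partners, 3 were higher and 1 lower in each lineage, 36.4% of the list beside 20% of all genes in CD8 and 22.5% in CD4 cells (medians 0.15 in CD8 and 0.05 in CD4 cells). Runx1, a transcription factor that works with Smads, rose by 1.71 ± 0.12 in CD8 cells (limma adjusted p = 4.64e-07) and by 0.37 ± 0.12 in CD4 cells (limma adjusted p = 0.0382). The CD4 call was lost without any 1 of the 6 CD4 arrays (adjusted p 0.0546 to 0.108) and with the replicate block (0.0533). Runx3, its relative that sets the CD8 lineage, differed by 0.15 in CD8 cells (limma adjusted p = 0.661) and fell in CD4 Foxp3-positive cells by 1.03 ± 0.17 (limma adjusted p = 0.000693). The coactivator Crebbp rose by 0.46 ± 0.08 in CD8 cells (limma adjusted p = 0.00145) and differed by 0.19 in CD4 cells (limma adjusted p = 0.123, or 0.0446 with a trended robust prior). Med15, a Mediator subunit that binds Smads, was called in neither (0.21 in CD8 and 0.05 in CD4 cells), but passed in CD8 cells with a trended robust prior (adjusted p 0.033) or with dim genes left out (0.0259).

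Of 18 ubiquitin ligases, deubiquitinases and other turnover regulators 17 were measured, and 8 were higher and 2 lower in CD8 Foxp3-positive cells, against 4 higher and 1 lower in CD4 Foxp3-positive cells (medians 0.24 and 0.09). That was 58.8% of the list beside 20% of all genes in CD8 cells and 29.4% beside 22.5% in CD4 cells. Smurf1, the close relative of Smurf2, rose by 1.12 ± 0.10 in CD8 cells (limma adjusted p = 4.03e-06) and by 0.80 ± 0.10 in CD4 cells (limma adjusted p = 5.5e-05), and these rises did not pass the test of a difference (0.32 ± 0.14, limma adjusted p = 0.17). The ligase Nedd4 rose by 0.86 ± 0.11 in CD8 cells (limma adjusted p = 9.2e-05) and differed by 0.25 in CD4 cells (limma adjusted p = 0.124, or 0.0314 without CD4 Foxp3-positive array C). Usp11, a deubiquitinase, rose by 0.97 ± 0.12 in CD4 cells (limma adjusted p = 4.11e-05) and differed by 0.09 in CD8 cells (limma adjusted p = 0.689). Usp4, a deubiquitinase of the type I receptor, was called in neither (0.00 in CD8 and 0.21 in CD4 cells), but passed in CD4 cells with a trended robust prior (adjusted p 0.0266), with dim genes left out (0.0261) or with arrays centred on their median (0.0408).

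Of 8 corepressor partners of Ski, Skil and Tgif1 6 were measured, and 1 was higher and 2 lower in CD8 cells, against 0 higher and 1 lower in CD4 cells (medians -0.08 and 0.12). That was 50% of the list beside 20% of all genes in CD8 cells and 16.7% beside 22.5% in CD4 cells. The CD4 count was 2 without CD4 Foxp3-positive array A and 0 without CD4 Foxp3-positive array B or CD4 control array B. Hipk2, a kinase that binds corepressors, read 9.56, 9.46 and 9.56 in CD8 Foxp3-positive cells against 7.41, 7.17 and 7.48 in CD8 control cells, and 10.18, 9.96 and 10.26 in CD4 Foxp3-positive cells compared with 10.34, 10.25 and 10.45 in CD4 control cells. It rose in CD8 cells by 2.18 ± 0.11 (limma adjusted p = 2.63e-08), and the CD4 difference of -0.21 was not called (limma adjusted p = 0.194). The corepressor Ctbp2 fell by 0.42 ± 0.13 in CD8 (limma adjusted p = 0.0329) and fell by 0.49 ± 0.13 in CD4 Foxp3-positive cells (limma adjusted p = 0.0144), and Ctbp1 fell by 0.29 ± 0.09 in CD8 Foxp3-positive cells (limma adjusted p = 0.0373). The CD8 calls of both were lost on the compared arrays alone (adjusted p 0.0998 for Ctbp2 and 0.0807 for Ctbp1) and with the replicate block (0.055 and 0.051). They were lost too without CD8 Foxp3-positive array A (0.0796 and 0.117) or B (0.137 and 0.0772). Each of these fits left 1 called gene of the list. Ctbp1 was also lost without CD8 control array A (0.15) or C (0.0748) or CD8 Foxp3-positive array C (0.0704), and with arrays centred on their median (0.0614). Ctbp2 was also lost without CD8 control array B (0.137). In CD4 cells Ctbp2 was lost without CD4 control array B (0.0528) or CD4 Foxp3-positive array B (0.0501). The deacetylase Hdac1 was called in neither lineage (0.02 in CD8 and 0.15 in CD4 cells).

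Downstream, 16 of 18 textbook Smad targets were measured, and 3 were higher and 4 lower in CD8 Foxp3-positive cells, against 5 higher and 4 lower in CD4 Foxp3-positive cells (medians 0.08 and -0.08). That was 43.8% of the list beside 20% of all genes in CD8 cells and 56.2% beside 22.5% in CD4 cells. Itgae, the CD103 integrin chain, rose by 6.93 ± 0.12 in CD8 cells (limma adjusted p = 3.83e-12) and by 4.87 ± 0.12 in CD4 cells (limma adjusted p = 5.18e-11). Id2, an inhibitor of E proteins, fell by 0.89 ± 0.16 in CD8 (limma adjusted p = 0.00117) and fell by 2.02 ± 0.16 in CD4 Foxp3-positive cells (limma adjusted p = 8.61e-07). Its relative Id3 rose by 1.87 ± 0.21 in CD8 (limma adjusted p = 3.01e-05) and by 1.69 ± 0.21 in CD4 Foxp3-positive cells (limma adjusted p = 5.25e-05). Cdkn1a averaged 10.03 in CD8 Foxp3-positive against 11.15 in CD8 control cells, and 10.12 against 11.57 in CD4 cells. Myc averaged 11.17 against 10.89 in CD8 cells and 11.18 against 10.34 in CD4 cells. The list sets no direction for its genes, and whether the changes reflect Smad activity was not tested. Zeb1, a repressor of epithelial genes, was called in neither (0.00 in CD8 and -0.13 in CD4 cells).

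All 5 cytotoxic genes that TGF-β is known to repress were lower in CD4 Foxp3-positive cells and 3 of them in CD8 Foxp3-positive cells (medians -3.66 and -1.25), beside 10.4% of all genes lower in CD4 and 10.6% in CD8 Foxp3-positive cells. Fasl went the other way in CD8 cells without being called. It read 9.35, 9.42 and 9.73 in CD8 Foxp3-positive cells against 9.09, 9.15 and 9.22 in CD8 control cells. Ifng, the cytokine interferon-γ, fell by 2.26 ± 0.25 in CD8 (limma adjusted p = 3.1e-05) and fell by 3.66 ± 0.25 in CD4 Foxp3-positive cells (limma adjusted p = 3.16e-07). Gzmb, which encodes granzyme B, fell by 1.44 ± 0.39 in CD8 (limma adjusted p = 0.0184) and fell by 4.54 ± 0.39 in CD4 Foxp3-positive cells (limma adjusted p = 2.13e-06). The CD8 call of Gzmb was lost without CD8 control array A (adjusted p 0.0619) or B (0.054) or CD8 Foxp3-positive array C (0.0589), and with a trended robust prior (0.0618). Gzma, granzyme A, differed by -0.70 in CD8 cells (limma adjusted p = 0.235) and fell by 4.65 ± 0.37 in CD4 Foxp3-positive cells (limma adjusted p = 9.96e-07). Some granzyme genes are alike in sequence, and whether these probes read more than 1 gene was not tested.

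Of 13 genes of the non-Smad branch, the kinases and other signalling proteins TGF-β uses beside Smads, 2 were higher and 2 lower in CD8 Foxp3-positive cells, and 5 were higher and 3 lower in CD4 Foxp3-positive cells (medians -0.03 and 0.04). That was 30.8% of the list beside 20% of all genes in CD8 cells and 61.5% beside 22.5% in CD4 cells. With a trended robust prior, or with dim genes left out, 7 were called in CD8 cells. Traf6, the ubiquitin ligase that couples the receptor to the kinase TAK1, rose by 0.98 ± 0.13 in CD8 (limma adjusted p = 0.000119) and by 1.20 ± 0.13 in CD4 cells (limma adjusted p = 1.54e-05). Map3k7, which encodes TAK1, rose by 0.76 ± 0.09 in CD4 cells (limma adjusted p = 6.14e-05) and differed by 0.22 in CD8 cells (limma adjusted p = 0.129). Map2k6, a kinase upstream of p38, fell by 1.19 ± 0.19 in CD8 (limma adjusted p = 0.000477) and fell by 2.23 ± 0.19 in CD4 Foxp3-positive cells (limma adjusted p = 1.68e-06). Rhoa, a small GTPase of the same branch, was called in neither (-0.17 in CD8 and 0.04 in CD4 cells), but passed in CD8 cells with a trended robust prior (adjusted p 0.0171) or with dim genes left out (0.0437).

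**Figure D4:**
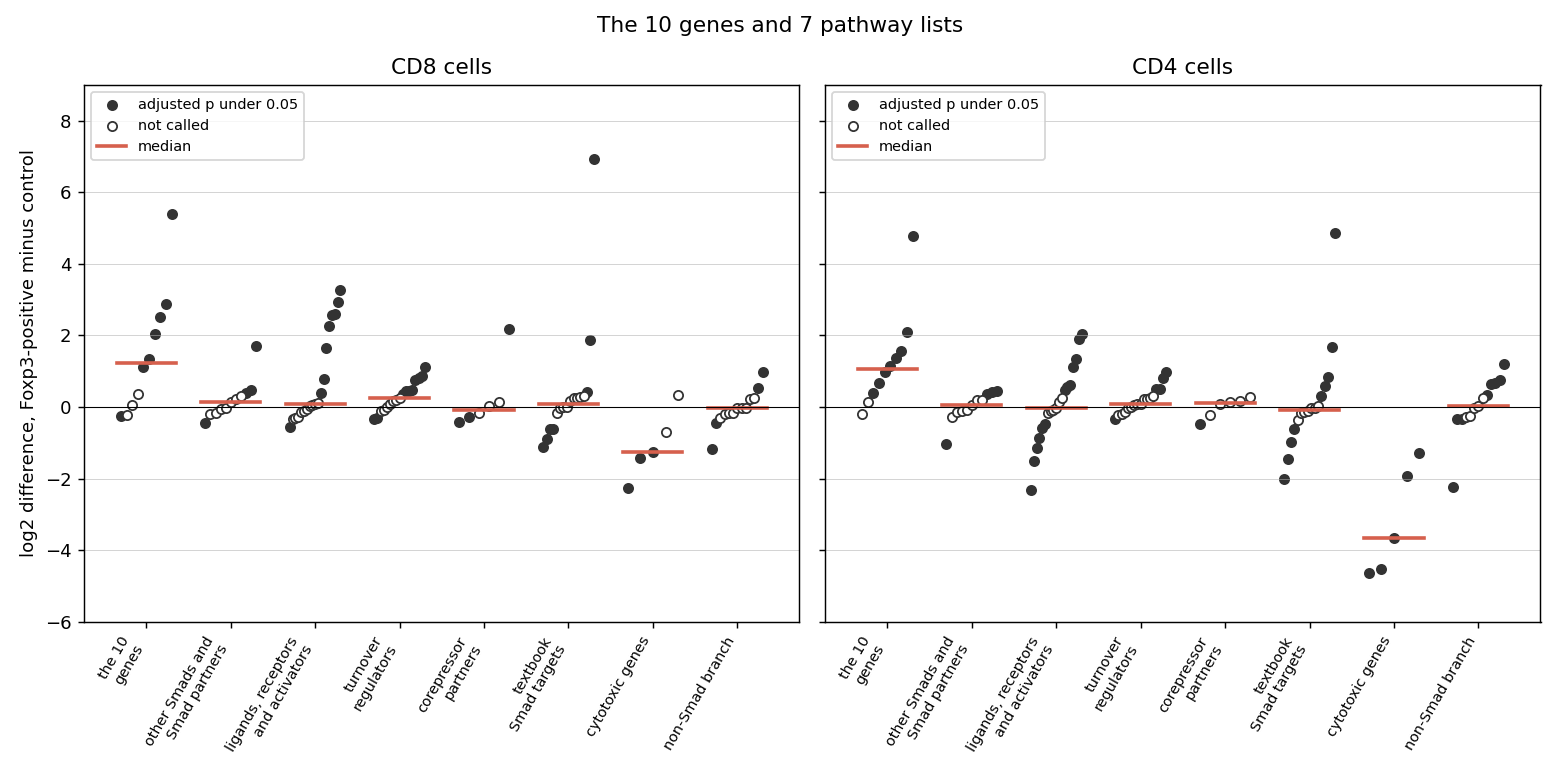
Log2 difference, Foxp3-positive minus control (vertical axis), of the 10 genes and of each measured gene of 7 pathway lists, in CD8 cells on the left and CD4 cells on the right, with a line at each list's median and filled points for an adjusted p under 0.05. The medians of the 10 genes are 1.23 and 1.06, and those of the 5 cytotoxic genes are -1.25 and -3.66.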

How the data were processed

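The authors deposited 1 log2 value for each array and transcript cluster. The submitters' processing notes name Affymetrix Expression Console and RMA, without versions; build and annotation: not given in the sources used here. RMA gives all arrays 1 common distribution, so a change of total RNA per cell does not show. Per the labels' protocols, 250 ng of RNA was labelled with a GeneChip WT Plus kit. Of 34365 clusters 23521 had 1 symbol, and the brightest cluster per symbol left 22180 genes, with none removed for a low level. Array medians lay between 5.23 and 5.33, and 3 arrays per group limit the precision.

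All 12 arrays entered 1 linear model with 4 group means (limma 3.58.1, R 4.3.3; lmFit, eBayes), with 8 residual degrees of freedom, and Benjamini-Hochberg adjustment over all genes in each of 5 contrasts. The fit was tested on simulated data. Differences of 0.5 on the log2 scale were recovered in 34.3% to 46.3% of cases between 2 groups and in 14.9% for the interaction. Those of 1 were recovered in 94% to 98.5% and in 86.6%. False calls were 4.88% between CD8 and CD4 Foxp3-positive cells, and 5.42% to 7.74% in the other contrasts, beside a threshold of 0.05. A small difference that was not called can therefore have been missed, and a call close to the threshold can be false. Alternatives were a trended robust prior, fits on the compared arrays alone, dim genes left out, arrays centred on their median, mean of clusters, the replicate block and each array left out. The replicate letters gave little sign of pairing: same-letter deviations correlated at -0.102 to 0.137, and 2 of 18 pairs exceeded 0.1. Both of these joined CD8 Foxp3-positive with CD8 control arrays (0.135 for letter B and 0.137 for C, beside 0.054 for A). Pairing in CD8 cells is thus not excluded, and the replicate block is given as an alternative.

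The members and pathway lists were chosen with earlier results of these data known. All 10 genes are named. From each pathway list the text names up to 3 called genes with the largest change in either lineage and the brightest gene called in neither. Smad6, Cdkn1a, Myc and Fasl are named outside this rule. For members spanning more than 1 on the log2 scale, the 3 genes nearest in profile are named. Listed genes without a cluster of 1 symbol were not analysed here. Promoter windows come from RefSeq.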

Additional observations from a re-analysis of the deposited data

Results flagged for a closer look

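The effect of the Foxp3-positive condition differed between CD8 and CD4 cells by limma's interaction test for 7 of the 10 genes, against 13.5% of all genes. The difference of the effects, CD8 minus CD4 on the log2 scale, was 1.72 for Pmepa1, 1.06 for Ski, 0.67 for Smurf2, 0.62 for Ldlrad4 and 0.43 for Skil. It was -1.20 for Tgif1 and -0.62 for Smad3. Of 12 fits that each left out 1 array, the call was lost in 10 for Ldlrad4, 10 for Skil and 3 for Smad3. Groups of 3 arrays are too small for a test of single outlying arrays.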

How the results depend on the processing

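Of 50 member results, 30 were called and 8 of these lost the call under at least 1 alternative. With each array left out in turn, the number of the 10 genes whose CD8 and CD4 effects differed was 4 to 6 (7 on all arrays; 4 without CD4 control array B or CD4 Foxp3-positive array A). The number of genes called between CD8 and CD4 Foxp3-positive cells was 674 to 969 (1044 on all arrays; 674 without CD8 Foxp3-positive array B and 687 without CD4 Foxp3-positive array A), and that of members 1 to 2. With arrays centred on their median, the interaction calls of Ldlrad4 (adjusted p 0.0523) and Skil (0.0859) were lost, as were the control differences of Smurf2 (0.127) and Skil (0.0996). The Smad2 call in CD8 cells was lost on the compared arrays alone (0.0907), and Smad2 in CD4 cells was called with a trended robust prior (0.047) or with dim genes left out (0.0256). With the replicate block, 7 members were called in CD8 and 8 in CD4 cells, 7 for the interaction, 2 between Foxp3-positive and 5 between control cells; the lost call was Smurf2 (0.059). Signs turned only for values near 0 that were not called. Centring turned the control difference, CD8 minus CD4, to 0.039 for Smad2 and 0.000149 for Smad3. Leaving out arrays gave control differences of -0.032 to 0.023 for Smad2, -0.037 to 0.057 for Smad4 and -0.031 to 0.165 for Smad7. In CD8 cells the differences ran from -0.0019 to 0.075 for Smad4, -0.041 to 0.227 for Usp11, -0.040 to 0.038 for Usp4, -0.043 to 0.072 for Hdac1 and -0.044 to 0.031 for Zeb1. The cause of these changes was not tested. Values near the array's background may be compressed, which limits folds of dim groups such as Ldlrad4 in control cells.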
